A study of Mus musculus with 6 samples.

Results

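Elongated spermatids are the last haploid germ cells of the testis before sperm are released. They were examined here as the 2599 cells, of 46495 in all, that the deposited cell table names Elongated ST. The data are single-cell RNA sequencing of testes of adult mice of strain C57BL6, dissociated with enzymes and run on the 10x 3′ v2 chemistry, where a molecular tag on every captured mRNA (a UMI) lets each molecule be counted once. The genotypes compared were NONO deltaER (libraries TD, TE and TF, named KI in the table) and NONO (libraries TA, TB and TC, named WT there). The labels do not state that KI means NONO deltaER and WT means NONO; if the match were the other way, every direction between the genotypes would turn. NONO is an RNA- and DNA-binding protein of nuclear paraspeckles, and the labels and files used here do not say what the deltaER alteration removes. Whether different mice gave the 3 libraries of a genotype is not stated either, and the p-values cover only variation among libraries, which may be technical.

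After meiosis, round spermatids shape an acrosome and a flagellum, exchange their histones for transition proteins and then for protamines, and stop transcription as the chromatin condenses. Messenger RNA for late proteins, among them the protamines and the mitochondrial capsule protein Smcp, is made earlier, stored in silent particles and translated days later, and most of the remaining cytoplasm is shed in the end. A transcript found in an elongated spermatid is therefore, as textbook background, mostly one that was made before and has been kept.

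TD, TE and TF, of NONO deltaER, gave 560, 450 and 376 elongated spermatids with 1605428, 1274698 and 878451 UMI, and TA, TB and TC, of NONO, gave 429, 329 and 455 with 1322540, 923054 and 1077814 UMI. Over all classes a library held 81042216 to 110018960 UMI. The class lies in the broad class Elongating of the table, together with the round spermatid classes of steps 6-7 (8790 cells) and 7-8 (3116 cells). Of the 2599 cells, 79 shared their barcode with a cell of another library, and 6 of them did so with another elongated spermatid. Nono itself, the altered gene, had 2 UMI in the 1386 NONO deltaER cells and 0 UMI in the 1213 NONO cells. A count of 0 allows up to 0.247% of these cells to carry a UMI (3 counts, counting error only), so the class cannot check the genotype labels.

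The class had the fewest genes per cell of the 17, by the median. Summed over the cells of a library it did not: a mean of 9604 genes had a UMI, against 9180 in macrophages, a class of far fewer cells. Its mean was 2716 UMI per cell, against 4888 in steps 7-8, and a cell had a median of 507 ± 33.2 genes, against 943 in steps 7-8 (means over 6 libraries, SD over the same 6). The order was the same at equal depth: with each cell thinned to 500 UMI, the median was 188.5 ± 9.46 genes in elongated spermatids and 249.8 in steps 7-8, and no other class was under 321. No cell was lost to the thinning, since every cell had at least 500 UMI. Only 594 genes reached 100 UMI when scaled to the total of the class (CPM, counts scaled to 1000000), against 853 in steps 7-8, 1307 in steps 6-7 and at least 1962 in each of the other classes. CPM of 3′ counts was not divided by gene length, because a transcript is tagged once whatever its length.

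Few genes held much of the RNA. The 10 most abundant genes of each library took 43.2% ± 3.31 of the UMI (SD, n = 6), and the lowest library had 39.6% and the highest 49.3%. The same share was 6.69% in steps 5-6, 18.0% in steps 6-7 and 29.4% in steps 7-8, and it did not pass 15.2% in any other class. In elongated spermatids 18.5 ± 4.14 genes held 50% of the UMI and 421 ± 28.4 genes held 90%. For 50% it took 489 genes in steps 5-6, 161 in steps 6-7 and 56.8 in steps 7-8, and each later class needed fewer. These are values of classes that the depositors defined from the same transcripts, and they are given as a description with no test.

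**Figure D1:**
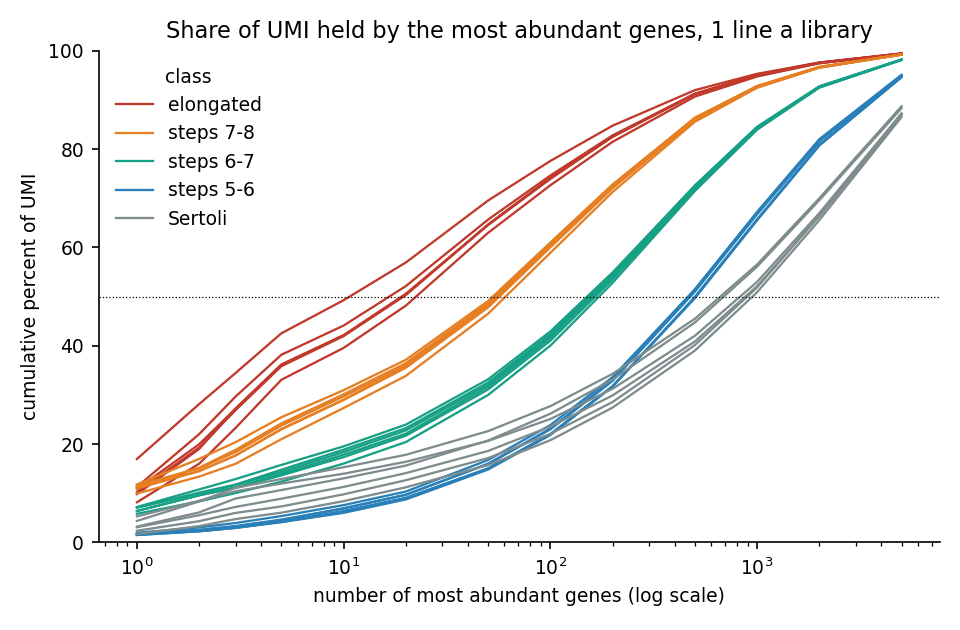
Cumulative percent of UMI (vertical axis) held by the most abundant genes of a class (horizontal axis, log scale), 1 line for each of the 6 libraries. At 10 genes every line of elongated spermatids, from 39.6% to 49.3% (TD), lies above every line of the other classes drawn, while at 1 gene the lines overlap with those of steps 7-8.

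The 2 most abundant genes were Zc3h7a, a zinc finger RNA-binding protein gene on chromosome 16, and Peak1, a pseudokinase gene on chromosome 9. Zc3h7a had 169602, 112841 and 81603 CPM in TD, TE and TF, against 108602, 102521 and 98179 CPM in TA, TB and TC. Peak1 had 111758, 107391 and 78455 CPM in TD, TE and TF, against 90995, 90374 and 91980 CPM in TA, TB and TC. TD was the highest library for both genes and TF the lowest, and the genotypes overlapped. Neither gene marks the class: 100% of elongated spermatids had a UMI of each, and so had at least 99.01% of the cells of every other class. Counted per cell, Zc3h7a had 309 ± 102 UMI in elongated spermatids (SD, n = 6), against 181 in steps 7-8 and 45.8 to 192 across all 16 other classes. The ratio of Zc3h7a to Peak1 in the class was 1.52 in TD, 1.05 in TE and 1.04 in TF, against 1.19 in TA, 1.13 in TB and 1.07 in TC. In TD the ratio lay between 1.52 and 2.05 in the other 16 classes as well, and in the 5 other libraries between 1.02 and 1.49.

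The annotation holds a short sequence that both loci share. On mm10 (GENCODE M21), Zc3h7a (chr16:11136592-11176393, minus strand) encloses Gm23935, a 57-base gene annotated as a miRNA on the plus strand (chr16:11144125-11144181). Peak1 (chr9:56201126-56418067, minus strand) encloses Gm24270, of the same type and length, on the minus strand (chr9:56223715-56223771). Another copy, Gm24245 (chr4:139338304-139338360, plus strand), lies in no other annotated gene. The first 2 are shown because they are a sequence that both of the 2 most abundant genes enclose. The loci were not otherwise compared. Capitals mark the bases that are the same in both, which are all 57:

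Gm23935: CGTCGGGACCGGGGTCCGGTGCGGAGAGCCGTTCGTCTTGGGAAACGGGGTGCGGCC
Gm24270: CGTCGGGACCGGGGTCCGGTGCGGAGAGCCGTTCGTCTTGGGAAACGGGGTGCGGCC

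No annotated transcript of Zc3h7a or Peak1 holds these bases on either strand, and among 141767 transcripts only the 3 small genes do. The copy within Zc3h7a lies on the strand opposite to that gene, and the copy within Peak1 on the same strand as its gene. Whether the UMI counted for Zc3h7a and Peak1 come from these bases was not tested. Their source is not known, and the levels of both genes are uncertain. Gm42418, the 8th most abundant gene (11808 CPM), is annotated as a long noncoding RNA (chr17:39846958-39848788, plus strand) that lies opposite the ribosomal RNA gene CT010467.1. A run of 1244 of its 1831 bases is the exact reverse complement of that gene's sequence, so its UMI cannot be told apart from antisense or misprimed ribosomal RNA here. Without Zc3h7a, Peak1 and Gm42418, an alternative chosen after seeing the data, the top 10 genes held 30.9% ± 0.422 of the UMI in elongated spermatids and 25.9% in steps 7-8. The genes that held 50% numbered 35.0 ± 1.095 in elongated spermatids and 66.5 in steps 7-8. The class stayed the most concentrated of the 17, by a smaller margin, and the libraries became alike, between 30.5% and 31.7%.

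The next transcripts in abundance were mostly those of spermatid proteins. After Prm2 (72890 CPM) and Smcp (65390 CPM) came Gstm5, a glutathione S-transferase (24272 CPM), Oaz3, a testis antizyme of polyamine metabolism (14522 CPM), Akap12, an A-kinase anchor (12434 CPM), and 4930571K23Rik (11691 CPM). Crisp2, a cysteine-rich secretory protein of the acrosome and flagellum, had 10690 CPM, Wbscr25, annotated as an antisense RNA and so uncertain, 10506 CPM, Tcp11, a gene for a protein of the sperm tail, 10280 CPM, Gm5617 8509 CPM, Reep6 8440 CPM and Tppp2, a tubulin-binding protein, 7960 CPM. Each of the 11 transcripts from Smcp to Tppp2 had its highest CPM of all classes in elongated spermatids. In all, 183 of the 594 genes at 100 CPM or more were highest there. They were 2.67% of the 6853 genes that reached 100 CPM in any class, the lowest share of the 17 classes.

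The 5 marker genes did not all match the name of the class. Smcp, the cysteine-rich protein of the mitochondrial capsule, had 63120, 61143 and 72798 CPM in TD, TE and TF, against 64545, 65696 and 65038 CPM in TA, TB and TC, and Odf1, a main protein of the outer dense fibres, had 5689, 4385 and 6571 CPM in TD, TE and TF, against 7055, 7873 and 3748 CPM in TA, TB and TC. Both were highest in this class, at 2.02-fold and 1.95-fold their levels in steps 7-8. Odf1 was lowest in TC here and in steps 6-7 and 7-8. Prm2, one of the 2 protamines, had 72890 CPM in elongated spermatids and 111396 CPM in steps 7-8. Tnp2, a transition protein, and Prm1, the other protamine, were low. Tnp2 had 30736 CPM in steps 6-7, 1390 CPM in steps 7-8 and 296 CPM in elongated spermatids, and Prm1 had 2186, 1088 and 48.4 CPM in the same 3 classes. A UMI of Prm1 was found in 11.004% of elongated spermatids and one of Tnp2 in 48.4%, against 22.4% and 49.2% in Sertoli cells, which do not express these genes. At median depths of 2426 UMI per elongated spermatid and 1836 per Sertoli cell, the shares in elongated spermatids were at or below those in Sertoli cells. In Leydig cells the shares of Prm1 and Tnp2 were 15.8% and 49.3%. They were lower in undifferentiated spermatogonia (9.51% and 23.4%, median 3291 UMI) and in the class named differentiated spermatogonia (3.39% and 11.6%, median 2036 UMI). The background thus varied by class, and its source was not tested. Smcp and Odf1 thus went with the name of the class. Prm2 was abundant but, over all cells of the class together, lower than in steps 7-8 in 6 of 6 libraries. Single cells differed widely in it, as given below. Tnp2 and Prm1 went against the name and had their peak in the class named steps 6-7. The name is used as the depositors' label.

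**Figure D2:**
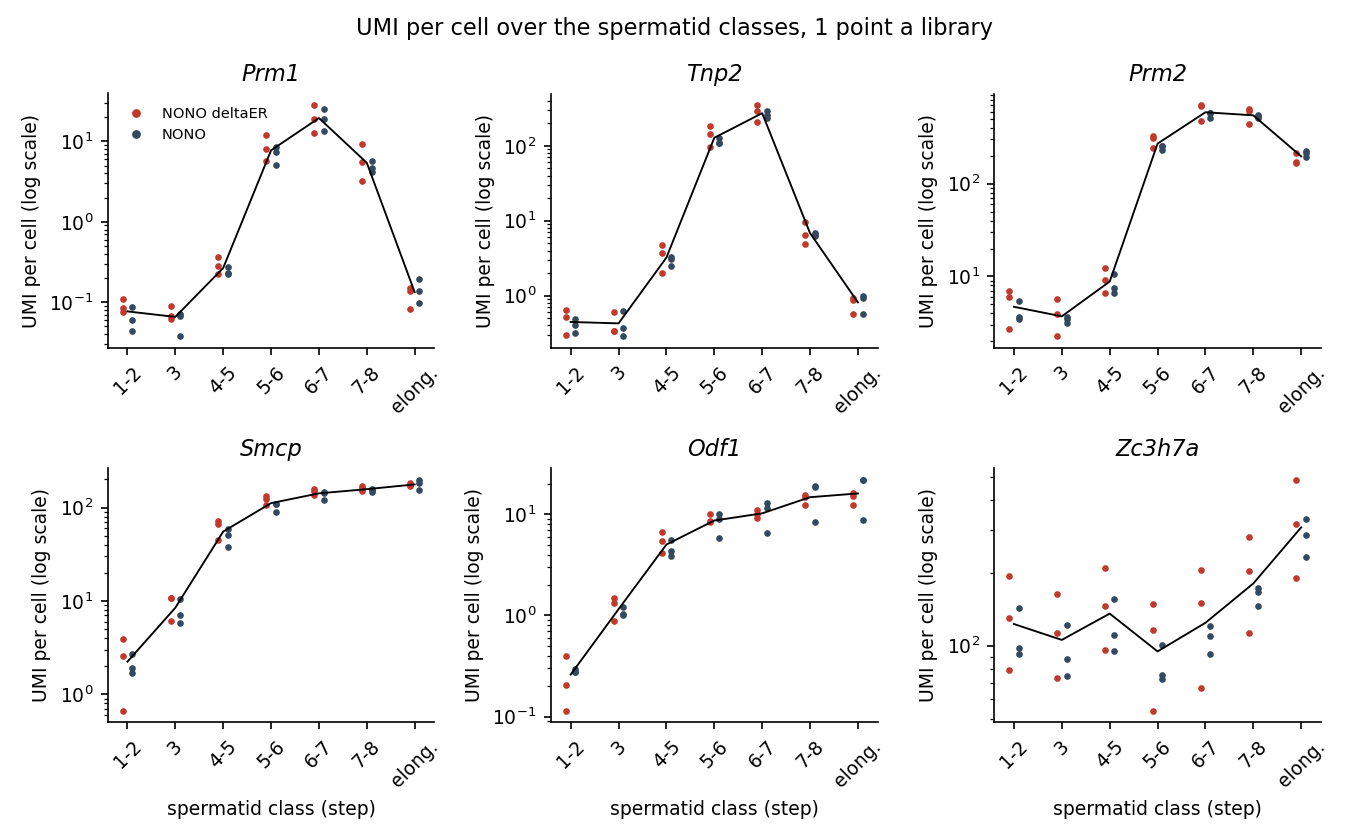
UMI per cell (log scale) of the 5 markers and of Zc3h7a over the spermatid classes, 1 point a library, NONO deltaER in red left of NONO in dark blue, with a black line through the means of 6 libraries. Tnp2 and Prm1 are highest in steps 6-7, Prm2 has 589 UMI per cell there and 197 in elongated spermatids, and Smcp and Odf1 are highest in elongated spermatids.

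Most transcripts were fewer per cell than in steps 7-8, and many had a higher CPM only within a smaller total. Of 905 genes at 100 CPM or more in elongated spermatids or steps 7-8, 257 had a higher CPM in elongated spermatids in all 6 libraries and 576 a lower one. Counted as UMI per cell, only 33 genes were higher in all 6 libraries and 789 were lower. The median log2 ratio of elongated spermatids over steps 7-8 was -0.68 for CPM and -1.54 for UMI per cell over the 905 genes. Smcp had 177 ± 15.1 UMI per elongated spermatid and 157 ± 8.03 per cell of steps 7-8 (SD, n = 6 each), and Odf1 had 16.1 ± 5.18 and 14.8 ± 3.996. Both were higher in 6 of 6 libraries by a small margin. Prm2 had 197 ± 24.7 UMI per elongated spermatid and 546 ± 70.1 per cell of steps 7-8, and Tnp2 had 0.814 and 6.83. The 2 scales therefore gave Smcp, whose CPM was 2.02-fold that of steps 7-8, a log2 ratio of only 0.17 per cell.

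Among the 33 genes with more UMI per cell were Zc3h7a, Peak1 and Gm42418, with log2 ratios of 0.77, 0.77 and 0.79, and Gm19951, Tmtc2, Jarid2, D130009I18Rik and Arhgap21, with 0.95 to 1.05. Jarid2, a subunit of a Polycomb complex, had 12.7 UMI per elongated spermatid and 6.31 per cell of steps 7-8, and its level in macrophages was close behind (4608 CPM in elongated spermatids, against 4240 CPM). All 8 of these genes except Arhgap21 were highest in elongated spermatids, but by no more than 1.28-fold over the next class for the ones other than Zc3h7a and Peak1, and that class was no spermatid class. Whether their UMI come from the genes named was not tested. The other 25 genes had smaller gains per cell, and 5 of them had a higher CPM in another class: Dnah7c, Tcf20, Fbxw5, Pim1 and Fank1. Tcf20, for example, had 317 CPM in elongated spermatids and 1142 CPM in preleptotene spermatocytes, and Pim1 had 174 CPM in elongated spermatids and 249 CPM in macrophages. Egln2, an oxygen-sensing prolyl hydroxylase, had a log2 ratio of 0.42, Hspb9, a testis small heat shock protein, 0.35, Pebp1 0.34, Azin2, an antizyme inhibitor, 0.23, Sord, sorbitol dehydrogenase, 0.08 and Hk1, the hexokinase of the fibrous sheath, 0.08. Dnah7c (0.43) has near-identical copies among the dynein heavy chain genes and is uncertain.

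At the other end, some genes of steps 7-8 were near absent. Gstt4 had 0.0274 UMI per elongated spermatid and 4.71 per cell of steps 7-8, Stat4 0.0397 and 5.65, Retreg1, a receptor for autophagy of the endoplasmic reticulum, 0.0568 and 6.15, and H2al2a, a histone variant that accompanies the transition proteins, 0.0276 and 3.02. Dnajc5b, Paqr5, Cdc14a, Tpt1, Tmsb10 and the ribosomal protein gene Rps13 complete the 10 genes with the lowest CPM ratios, with 0.0143 to 0.0614 UMI per elongated spermatid and 1.40 to 5.41 per cell of steps 7-8. H2al2a belongs to a family of near-identical copies, so its count is uncertain. The source of UMI at levels this low was not tested.

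The lists are described by their counts, with no test between them. Over all 905 genes, 257 (28.4%) had a higher CPM than in steps 7-8 in 6 of 6 libraries, 576 (63.6%) a lower one, and the median log2 ratio was -0.68. Of 22 ribosomal protein genes at 100 CPM or more in either class, 21 had a lower CPM in elongated spermatids in 6 of 6 libraries, with a median log2 ratio of -3.75, and the whole list of 80 measured genes fell to 0.187% of the UMI, against 0.889% in steps 7-8. The nuclear genes of oxidative phosphorylation made up 0.0295% of UMI in elongated spermatids and 0.0725% in steps 7-8. Of 15 genes of the perinuclear theca and of head-tail coupling, 14 were lower in 6 of 6 libraries, among them Spata6, needed for the connecting piece (log2 CPM ratio -3.54), and Hook1 (-1.34), and Spem2 (0.47) was higher. All 4 acrosome genes at 100 CPM or more were lower. The medians of the theca and acrosome genes were -1.14 and -1.26. Of the genes of histone-to-protamine exchange, 6 of 7 were lower (median -2.23), of the mitochondrial sheath 7 of 8 (-1.29), with Smcp higher, and of mRNA storage 5 of 5 (-0.78).

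The tail lists were near the median of all genes: of 9 outer dense fibre and fibrous sheath genes, 3 were higher and 5 lower (median -0.64), and of 10 axoneme genes, 2 were higher and 7 lower (-0.74). Oaz3, Odf1 and Cabyr had higher CPM in 6 of 6 libraries (log2 ratios 0.90, 0.96 and 0.35). Akap4, the main scaffold of the fibrous sheath, and Odf2, an outer dense fibre protein, had lower CPM (-0.76 and -1.84). The medians of the glycolytic and ubiquitin lists were above that of all genes, at 0.31 and -0.11. So was that of the spermiogenic transcription regulators, at 0.43, where 3 of only 4 genes were higher and 1 lower. Of 11 glycolytic genes, 6 were higher in 6 of 6 libraries, led by Hk1 (6994 CPM, log2 ratio 0.92) and Pgk2, the sperm phosphoglycerate kinase (3823 CPM, 0.50), and 5 were lower, with Pgam2 at -1.48. Of 12 ubiquitin genes, 5 were higher and 6 lower, with Ube2n, a conjugating enzyme, at 6643 CPM (0.69) and Klhl10, a Cullin-3 adaptor of spermatids, at 1311 CPM (0.55). Of 4 genes in the list of testis-specific serine kinases, 3 were higher and 1 lower (median 0.19). Tssk3 (1863 CPM), Tssk2 (1141 CPM) and Tssk6 (273 CPM) had log2 CPM ratios of 0.21, 0.16 and 0.22. On the scale of UMI per cell, Tssk3 had 5.03 in elongated spermatids and 7.88 in steps 7-8, and of the genes named in these groups only Odf1 and Hk1 were higher per cell in 6 of 6 libraries.

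Elongated spermatids differed widely among themselves in Prm2. Prm2 was under 1% of the UMI in 1079 cells, of which 234 had none, 1% to 5% in 289 cells, and 5% or more in 1231 cells. In steps 7-8 only 1 of 3116 cells was under 1%, and in steps 6-7 only 2 of 8790. The limits of 1% and 5% were chosen after seeing the values. The 3 ranges held 41.5%, 11.1% and 47.4% of the cells, so the middle was thinly filled but not empty, and 171 cells lay between 0.5% and 2%. Whether the ranges are separate types was not tested. The share of cells under 1% was 50.5%, 40.2% and 41.2% in TD, TE and TF, against 35.9%, 40.4% and 38.0% in TA, TB and TC. TD was the highest, TE lay below TB, and the genotypes overlapped. Median UMI per cell was 1832 in Prm2-poor cells and 2819 in Prm2-rich cells, and median genes per cell were 343 and 605. Prm2-poor cells had 2.89 ± 0.614 Prm2 UMI per cell and Prm2-rich cells 395 ± 38.6 (SD, n = 6). The first value is below the 3.72 UMI per cell of step 3 round spermatids, the lowest of the other 16 classes. The cut at 1% kept it low, and the order was the reverse in CPM. Prm2-poor cells had 1266 CPM of Prm2, and step 3 had from 133 CPM in TE to 323 CPM in TD. Prm2-rich cells had 124819 CPM, above the 111396 CPM of steps 7-8, and the cut at 5% kept the first value high.

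**Figure D3:**
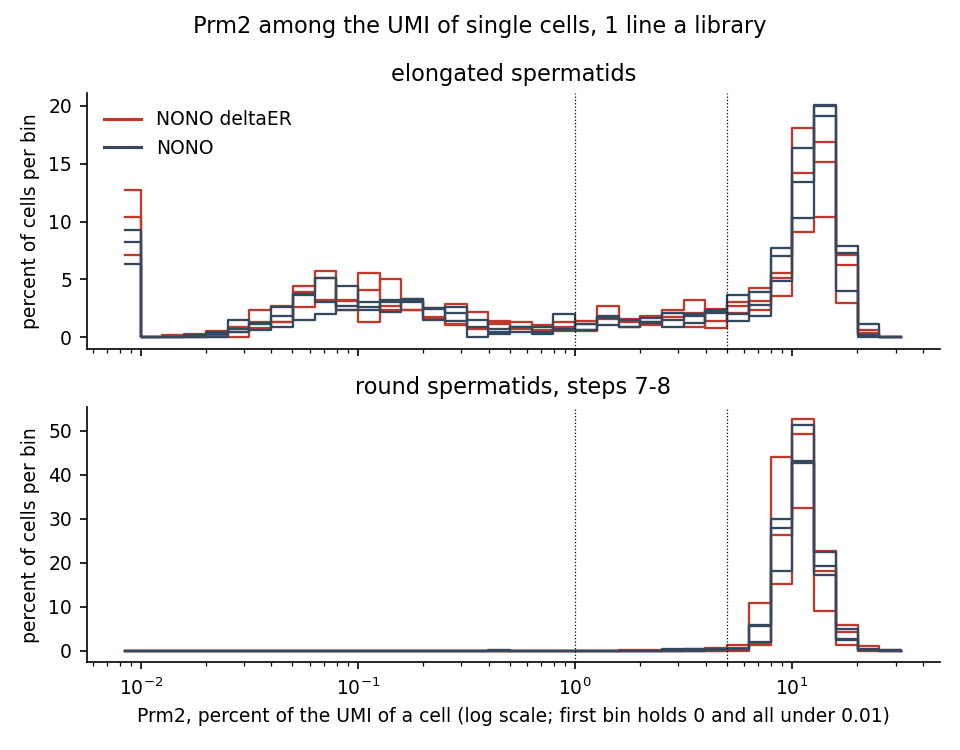
Percent of cells (vertical axis) by the percent of their UMI that is Prm2 (horizontal axis, log scale; the first bin holds cells under 0.01%), 1 line a library, NONO deltaER in red and NONO in dark blue, for elongated spermatids above and steps 7-8 below. Elongated spermatids form a broad group under 1% and a narrow one above 5%, parted by dotted lines at 1% and 5%, and steps 7-8 form only the upper one.

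Some other transcripts were low together with Prm2, and some were not. Leaving out Prm2, 265 genes had 500 CPM or more in either range, of which 191 had fewer UMI per cell in Prm2-poor cells in 6 of 6 libraries, and 68 were at least 10-fold fewer. Another 38 had more in 6 of 6 libraries, and 102 differed by less than 2-fold either way. The poor range was cut by a transcript of the same cells, so these counts are a description with no test. Akap4 had 0.583, 0.713 and 0.387 UMI per Prm2-poor cell in TD, TE and TF and 0.695, 0.564 and 0.590 in TA, TB and TC. In Prm2-rich cells it had 36.2, 38.1 and 35.9 in TD, TE and TF and 36.2, 36.6 and 32.4 in TA, TB and TC. The ranges were far apart in every library, and the poor cells stood below the 0.754 UMI per cell of steps 1-2, the lowest other class. That order is per cell only and need not hold as a share of UMI. Akap4 had 259 CPM in Prm2-poor cells, and cells of steps 1-2 held far more UMI in all, 18810 per cell on average. Spz1, a transcription factor gene of the testis, had 0.908 ± 0.216 UMI per Prm2-poor cell and 41.3 ± 4.70 per Prm2-rich cell, Iqcf3 0.147 ± 0.0464 and 13.4 ± 1.73, and Odf2 3.10 ± 0.378 and 31.8 ± 3.13. Gpx4, the selenoprotein of the mitochondrial capsule, had 0.860 and 8.51, and Micos13, of the inner mitochondrial membrane, 0.0280 and 4.89.

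Smcp went the other way. It had 207, 209 and 215 UMI per Prm2-poor cell in TD, TE and TF and 278, 234 and 188 in TA, TB and TC. In Prm2-rich cells it had 151, 145 and 138 in TD, TE and TF and 148, 144 and 132 in TA, TB and TC. Prm2-poor cells thus had more Smcp per cell in 6 of 6 libraries although they had fewer UMI in all. Odf1 (18.3 per Prm2-poor cell and 14.3 per Prm2-rich cell), Gstm5 (74.0 and 58.8), Oaz3 (44.6 and 35.4), Pebp1 (18.6 and 13.5) and Sord (21.1 and 18.2) were also higher in 6 of 6 libraries. Crisp2 (28.3 and 30.1), Akap12 (34.1 and 33.5) and Hk1 (16.9 and 19.6) were near the same level in both. Zc3h7a had 445 ± 129 UMI per Prm2-poor cell and 199 ± 64.4 per Prm2-rich cell, and it and Peak1 were the only ones of the 265 genes with at least 2-fold more in Prm2-poor cells. Smcp and Zc3h7a in Prm2-rich cells were near their 157 and 181 UMI per cell of steps 7-8. Odf2, with 112 UMI per cell in steps 7-8, was already much lower in Prm2-rich cells.

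**Figure D4:**
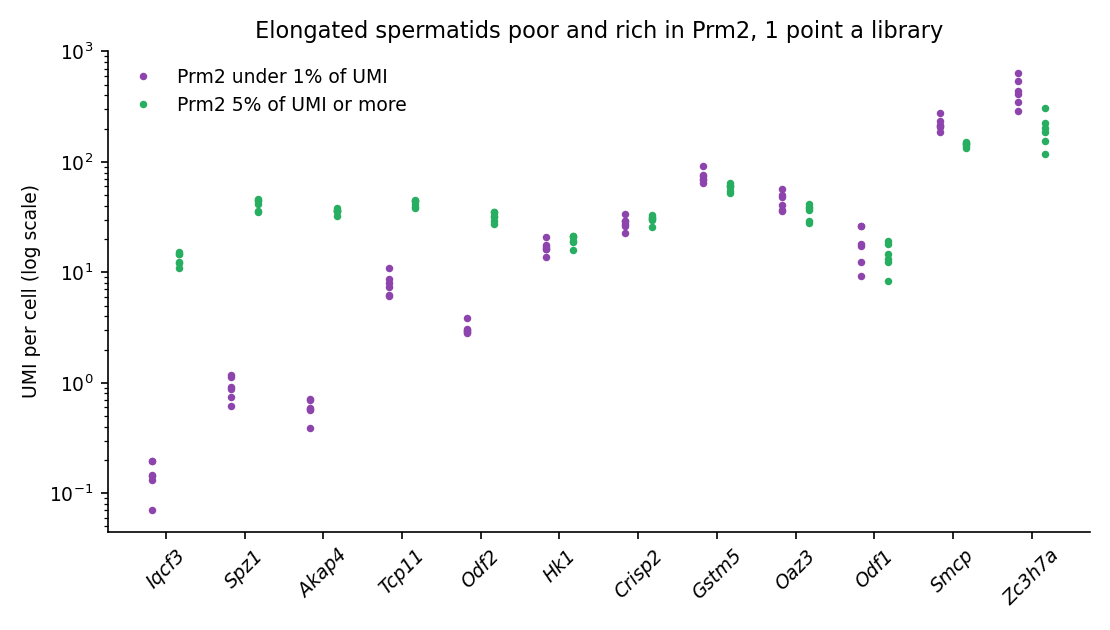
UMI per cell (log scale) of 12 genes in elongated spermatids with Prm2 under 1% of UMI (purple, left) and at 5% or more (green, right), 1 point a library. Iqcf3, Spz1, Akap4, Tcp11 and Odf2 are lower in Prm2-poor cells in every library, while Gstm5, Oaz3, Odf1, Smcp and Zc3h7a are higher in every library.

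Promoters of 2 genes from each side are shown: Prm2 and Akap4, near absent from Prm2-poor cells, and Smcp and Gstm5, kept in them. Prm2 is low in these cells by the cut itself, since its share set the ranges. Each is the 250 bases before the RefSeq start on GRCm38.p6, read 5′ to 3′ on the gene's strand: Prm2 at chr16:10792106-10792355 (minus strand), Akap4 at chrX:7067265-7067514 (plus strand, the first of 2 entries), Smcp at chr3:92589074-92589323 (minus strand) and Gstm5 at chr3:107895604-107895853 (plus strand). Capitals mark a match to TGANNTCA on either strand, a form of the site bound by cAMP response element factors such as CREM, which drives many genes of spermatids:

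Prm2: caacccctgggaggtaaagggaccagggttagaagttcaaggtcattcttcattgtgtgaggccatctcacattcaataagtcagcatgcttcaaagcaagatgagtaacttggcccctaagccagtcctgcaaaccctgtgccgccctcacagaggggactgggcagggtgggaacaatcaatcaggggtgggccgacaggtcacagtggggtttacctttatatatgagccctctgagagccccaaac
Akap4: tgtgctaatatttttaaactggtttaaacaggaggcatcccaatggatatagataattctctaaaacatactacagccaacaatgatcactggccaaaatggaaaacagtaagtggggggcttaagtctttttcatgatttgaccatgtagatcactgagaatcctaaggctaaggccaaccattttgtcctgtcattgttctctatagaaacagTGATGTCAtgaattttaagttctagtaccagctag
Smcp: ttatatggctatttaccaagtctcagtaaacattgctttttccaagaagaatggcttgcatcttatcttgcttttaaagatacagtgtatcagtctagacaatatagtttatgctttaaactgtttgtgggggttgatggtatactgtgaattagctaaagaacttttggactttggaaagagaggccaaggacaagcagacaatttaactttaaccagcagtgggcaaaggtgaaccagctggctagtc
Gstm5: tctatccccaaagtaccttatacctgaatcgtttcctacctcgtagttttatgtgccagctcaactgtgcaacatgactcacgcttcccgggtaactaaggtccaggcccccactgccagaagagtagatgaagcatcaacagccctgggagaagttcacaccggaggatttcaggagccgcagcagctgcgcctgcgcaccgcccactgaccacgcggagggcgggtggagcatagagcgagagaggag

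Akap4 alone of the 4 holds a match, which begins 35 bases before the start. One is held by 11.9% of the 32851 RefSeq promoters of the same length, and a match or its lack in this window says nothing on the factor. Odf1 and Oaz3, also kept in Prm2-poor cells, are named only.

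Between the genotypes, the share of all cells that were elongated spermatids was 7.98%, 7.19% and 4.56% in TD, TE and TF, against 4.82%, 3.87% and 6.01% in TA, TB and TC. TD and TE were the highest of the 6, but TF lay below TA and TC. The means were 6.58% ± 1.79 in NONO deltaER and 4.90% ± 1.07 in NONO (SD, n = 3 each; two-sided exact permutation p = 0.3, where 0.1 is the smallest that 3 against 3 libraries allow). The difference of 1.68 percentage points was 0.975 without TD and 2.69 without TF. Median UMI per cell averaged 2387 ± 232 in NONO deltaER and 2498 ± 311 in NONO (SD, n = 3 each; exact permutation p = 0.5), and median genes per cell 492 ± 22.8 and 522 ± 39.7 (SD, n = 3 each; exact permutation p = 0.4). The top 10 genes by the mean of all libraries took 49.3%, 44.1% and 39.3% of UMI in TD, TE and TF, against 42.1%, 41.9% and 42.1% in TA, TB and TC (exact permutation p = 0.7). The NONO deltaER libraries lay on both sides of the NONO libraries and spread more, 44.2% ± 5.002 against 42.004% ± 0.0967 (SD, n = 3 each). Without TD the difference turned to -0.32 percentage points, and without Zc3h7a, Peak1 and Gm42418 it was 0.24 percentage points.

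Mitochondrial UMI averaged 0.0303%, 0.0309% and 0.0305% of a cell's UMI in TD, TE and TF, against 0.0239%, 0.0280% and 0.0273% in TA, TB and TC. The genotypes did not overlap (exact permutation p = 0.1, the smallest possible), and a mean of 83.1% of the cells had no mitochondrial UMI at all. By UMI summed over the cells of a library, the genotypes did overlap. The 13 mitochondrially encoded genes took 0.0256%, 0.0272% and 0.0297% in TD, TE and TF, against 0.0277%, 0.0255% and 0.0221% in TA, TB and TC (exact permutation p = 0.4). Over all cells the libraries parted by their mitochondrial percent into TA, TB and TF (higher) and TC, TD and TE (lower), a split that crosses the genotypes. Within each set every NONO deltaER library was above every NONO library in the mean percent of elongated spermatids. That order follows from the lack of overlap and adds nothing to it.

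No gene differed between the genotypes at the threshold. By edgeR's quasi-likelihood test on UMI summed per library, 0 of 2747 genes tested (0%) passed an adjusted p of 0.05, with a lowest adjusted p of 0.626, and 163 genes (5.93%) had an unadjusted p under 0.05. DESeq2, run on 14784 genes without that filter on counts, also called 0 genes, with 43 of the 14784 at an unadjusted p under 0.05. In 264 genes (9.61%) every library of 1 genotype lay above every library of the other, of which 118 were higher and 146 lower in NONO deltaER. The median absolute log2 fold change over all tested genes was 0.16, and 5% exceeded 0.59. The difference of the genotype effects between elongated spermatids and steps 7-8 passed for 0 of 2739 genes by limma (0%), with a lowest adjusted p of 0.513 and 165 genes at an unadjusted p under 0.05.

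None of the 5 markers passed. Log2 fold changes of NONO deltaER over NONO were 0.05 ± 0.07 for Smcp, -0.12 ± 0.07 for Prm2, -0.13 ± 0.35 for Odf1, 0.03 ± 0.15 for Tnp2 and -0.12 ± 0.20 for Prm1 (SE; edgeR adjusted p from 0.793 to 0.987). Prm2 had 58042, 76358 and 72458 CPM in TD, TE and TF, against 72462, 76091 and 81931 CPM in TA, TB and TC, and TD stood apart as the lowest. Zc3h7a and Peak1 had log2 fold changes of 0.31 ± 0.37 and 0.18 ± 0.21 (edgeR adjusted p = 0.922 and 0.917). Without TD the value for Zc3h7a was -0.11.

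None of the lists held a gene that passed. Median log2 fold changes were -0.09 over 16 tested genes of histone-to-protamine exchange, 0.00 over 13 of outer dense fibre and fibrous sheath, 0.04 over 22 of the axoneme, -0.11 over 11 of the mitochondrial sheath, 0.00 over 16 of glycolysis, 0.01 over 20 of the ubiquitin pathway and -0.16 over 22 of the cytosolic ribosome. The median over all genes tested was 0.01. Outer dense fibre and fibrous sheath genes together took 3.64% ± 0.274 of UMI in NONO deltaER and 3.87% ± 0.292 in NONO (SD, n = 3 each; exact permutation p = 0.3), and ribosomal protein genes 0.177% ± 0.0151 and 0.198% ± 0.0160 (SD, n = 3 each; exact permutation p = 0.2). In the DBHS and paraspeckle list, to which Nono belongs, only 3 of 17 genes were tested, and 1 of them, Rbm4b (488 CPM), reached 100 CPM.

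The 10 genes with the lowest unadjusted p among those of at least 100 CPM without overlap are named, although none passed (edgeR adjusted p 0.626 for Gnaq and St3gal6, 0.793 for the others). Gnaq, a G-protein alpha subunit, had 144, 148 and 154 CPM in TD, TE and TF, against 270, 196 and 168 CPM in TA, TB and TC, a log2 fold change of -0.48 ± 0.14 (SE), which was -0.24 without TA. St3gal6, a sialyltransferase, had 84.7, 108 and 116 CPM in TD, TE and TF, against 149, 157 and 118 CPM in TA, TB and TC (-0.43 ± 0.14). In both genes the nearest libraries were close: TF and TC differed by less than the spread within NONO. Gosr2, a Golgi SNARE, had 118, 119 and 120 CPM in TD, TE and TF, against 154, 156 and 161 CPM in TA, TB and TC (-0.35 ± 0.12). Its genotypes were parted by more than their own spread, but it was picked for lack of overlap, so this is no added support. The others were Herpud2 (-0.38), Rpl13a (-0.39), Tmem53 (-0.27), Isca1, an iron-sulfur cluster assembly factor (-0.27), Spem1, a spermatid protein of cytoplasm removal (-0.27), Fem1c (0.28) and Zfp654 (0.24). TD was the lowest of the 6 libraries in all 8 genes with a negative value, and without TD the values of Spem1 and Herpud2 were -0.15 and -0.24. Tmem53 had 0.0350 UMI per Prm2-poor cell and 2.68 per Prm2-rich cell, and TD had the largest share of Prm2-poor cells. The part of that share in these values was not tested.

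**Figure D5:**
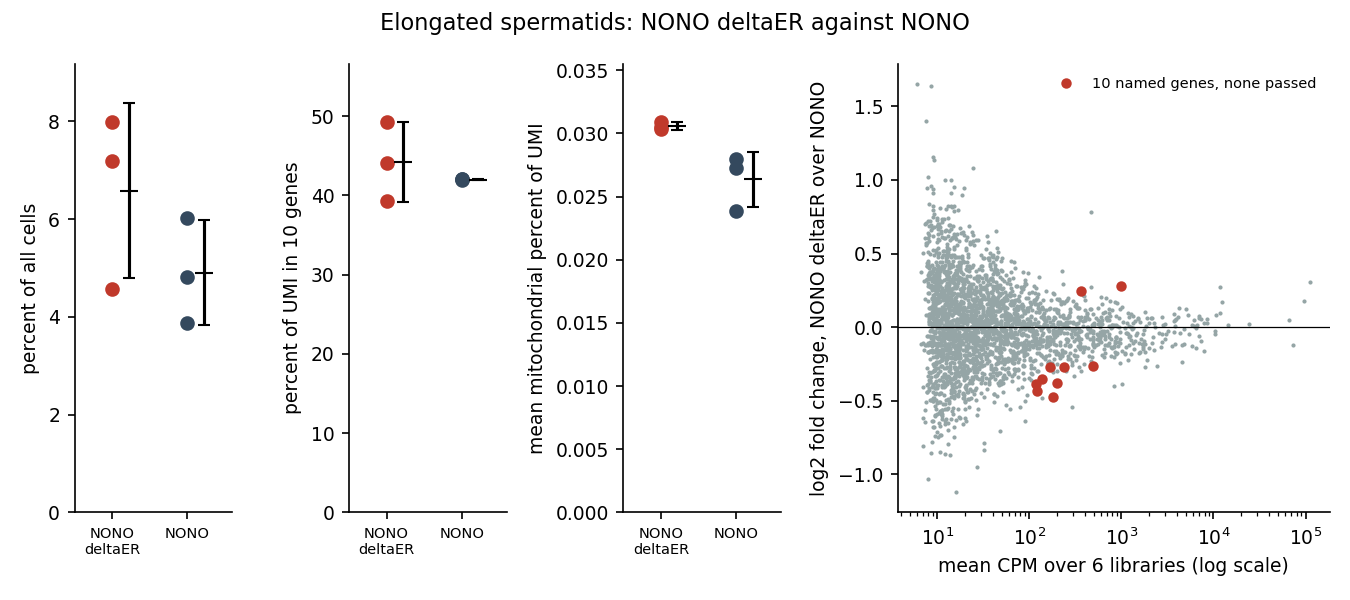
Elongated spermatids of NONO deltaER (left, red) and NONO (right, dark blue): share of all cells, percent of UMI in the 10 most abundant genes and mean mitochondrial percent, 1 point a library with the mean and SD beside it. The right panel gives the log2 fold change of 2747 genes against mean CPM (log scale), with the 10 named genes in red, none of which passed.

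Transcripts of other cell types were scarce in the class. Over the 6 libraries, Sertoli cell markers made up at most 0.00171% of UMI, and 7 of 13 were at 0, Sox9 and Amh among them. They averaged 0.00125% in NONO deltaER and 2.5e-04% in NONO without overlap (n = 3 each), and markers of interstitial and endothelial cells averaged 0.00100% in NONO deltaER and 4.7e-04% in NONO, also without overlap and with 3 of 9 at 0. TB had no UMI of the Sertoli markers. No gene of these 2 lists passed the filter on counts, so both differences rest on few UMI. No other marker list parted the genotypes. The part of these 2 lists in the genotype comparison was not tested. Leydig cell markers reached at most 4.3e-04%, myoid markers 0.00171%, spermatogonial markers 0.00130%, round spermatid markers 0.00677% and red blood cell markers 0. Macrophage markers were 0.0113% to 0.0142%, nearly all from Apoe and C1qb, with C1qa, C1qc and Csf1r at 0. Spermatocyte markers were 0.0180% to 0.0217%, and dissociation stress genes 0.00758% to 0.0109%. Transcripts abundant in the class were in turn seen elsewhere: a UMI of Smcp was found in 61.8% of Sertoli cells and one of Prm2 in 66.4%. The shares were 19.2% and 28.4% in the class named differentiated spermatogonia. Whether these UMI are free RNA, and from which class, was not tested.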

How the data were processed

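UMI counts per gene and cell, cell classes and mitochondrial percentages were used as the authors deposited them for 6 libraries. The tool and build were Cell Ranger 2.1.1 and mm10, per the submitters' processing notes, and the filters behind the deposited matrix are not stated. The percent of mitochondrial UMI is a column of the deposited cell table. The members and gene lists were chosen with earlier results of these data known. Cells named Elongated ST were summed per library, without removing doublets. Genotypes were compared with edgeR 4.0.16 (R 4.3.3; TMM, filterByExpr, quasi-likelihood test, Benjamini-Hochberg adjustment), the difference from steps 7-8 with limma 3.58.1, and DESeq2 1.42.0 was an alternative. Single values per library had an exact permutation test (SciPy 1.17.1). Of 25771 genes, 25127 (97.5%) matched GENCODE M21. Genes were named by rule: the markers and the 15 most abundant, the 10 with the highest and the 10 with the lowest CPM ratio to steps 7-8, any that passed the threshold, otherwise the 10 with the lowest p among those of at least 100 CPM without overlap, and members of the lists. The genes that part Prm2-poor from Prm2-rich cells were chosen after their values were seen. The scripts were tested on simulated data. Tables do not tie the libraries to the numbered samples.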

Additional observations from a re-analysis of the deposited data

How the results depend on the processing

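No paired analysis was possible because the library names carry no replicate numbers that tie them to the numbered samples. Under 15 alternatives the count of genes that passed between the genotypes stayed at 0, and the lowest adjusted p lay between 0.0669 (no filter on low counts) and 0.999 (DESeq2); without TC it was 0.0820. Under 8 alternatives the difference from steps 7-8 also stayed at 0. Leaving out 1 library in turn moved the NONO deltaER minus NONO difference in the share of cells between 0.975 and 2.69 percentage points, in median UMI per cell between -287 and 13.1, in the share of the 10 most abundant genes between -0.32 and 4.68 percentage points, and in the genes that hold 50% of UMI between -6.0 and 0.0. Log2 fold changes then lay between -0.25 and 0.076 for Prm1, -0.13 and 0.19 for Tnp2, -0.40 and 0.070 for Odf1, -0.11 and 0.57 for Zc3h7a, -0.62 and -0.24 for Gnaq, -0.38 and -0.15 for Spem1, and -0.54 and -0.24 for Herpud2. Tnp2 had -0.000932 with no filter on low counts, and Odf1 had 0.14 with the library set (by mitochondrial percent) as covariate. Without Zc3h7a, Peak1 and Gm42418, chosen after seeing the data, elongated spermatids minus steps 7-8 was 5.001 percentage points in the top 10 share and -31.5 in the genes that hold 50% of UMI. The cause of these changes was not tested. Of the other 13 genes followed between the genotypes, none changed sign. Small libraries limit low genes: 2747 of 14784 genes with UMI passed the filter on counts.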

Other observations

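The 289 elongated spermatids with 1% to 5% of their UMI in Prm2 did not lie midway for every gene. Of the 68 genes at least 10-fold fewer per cell in Prm2-poor than in Prm2-rich cells, 26 were nearer to Prm2-poor cells in this range on a log scale and 42 nearer to Prm2-rich cells. Iqcf3 had 0.147 UMI per cell in Prm2-poor cells, 0.377 in the range between and 13.4 in Prm2-rich cells. Micos13 was likewise nearer to its level in Prm2-poor cells, with 0.0280, 0.134 and 4.89 UMI per cell in the same order. Gsg1, a germ cell protein gene, had 0.142, 2.35 and 3.22, Eef1g, a subunit of a translation elongation factor, 0.443, 5.37 and 8.12, and Akap4 0.589, 13.4 and 35.9. Prm2 itself, which set the ranges, had 2.89, 66.4 and 395 UMI per cell. Nothing here orders the cells in time, and mixed droplets were not told apart. The ranges were drawn after the values were seen, the genes were named for their values, and no test was made.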
